A study of Mus musculus with 2 samples.

Results

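The genes described here encode the nuclear subunits of respiratory complexes II, III and IV and of the ATP synthase, complex V. They were chosen by a list of 38 gene symbols, all of which matched 1 row each among the 43346 genes of the deposited tables: 4 for complex II, 9 for complex III, 10 for complex IV and 15 for complex V. Levels were measured in 2 RNA-seq libraries from newborn livers of the mouse strain B6NCrl on postnatal day 0, from pup 1 (replicate 1) and pup 3 (replicate 2). The input was 13 pg of total RNA longer than 200 nt, named 1 cell-equivalent in the labels, and spike-in RNAs were included. The RNA came from whole tissue, so each value averages over the cells of the organ, and fewer cells of a type cannot be told apart from less RNA per cell. Neither pup carries a labelled genotype change or treatment, sex was not collected, and both libraries name the same donor entry, so spread between animals and technical spread cannot be told apart. The labels give 1 group and no contrast. The results are therefore levels with their spread (mean ± SD, n = 2 throughout) and ratios between the libraries, which describe these libraries and carry no test.

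Complexes II to IV pass electrons from succinate and ubiquinol to oxygen, and complexes III and IV pump protons across the inner mitochondrial membrane. ATP synthase lets the protons flow back and makes ATP from ADP. Complex II is encoded wholly in the nucleus, whereas complexes III, IV and V also hold subunits from the mitochondrial genome. In the liver at birth, when the supply of nutrients through the placenta ends, oxidative metabolism feeds glucose and ketone production.

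Depth was 56959836 expected counts in the library of pup 1 and 35973980 in that of pup 3, where an expected count is the estimated number of reads of a gene. TPM, a level per transcript length, was rescaled to a sum of 1000000 per library once spike-ins were removed. The 6 hepatocyte markers (Alb, Apoa1, Trf, Ahsg, Ttr and Afp) were present in both libraries, with summed shares of 15.1% of TPM in pup 1 and 12.3% in pup 3. The 7 erythroid markers were present in both as well, at 13.3% and 16.4%. All 8 striated muscle markers were under 1 TPM in both libraries, and of the 4 brown fat markers Plin5 alone reached 1 TPM, in pup 3.

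All 38 subunit genes were detected, at 1 TPM or more, in both newborn livers. Of all genes found in at least 1 library 46.3% were found in both, but among the 1044 genes of the same range of mean level the share was 98.0%, so full detection is near the background at this abundance. The subunits' means ran from 94.8 TPM for Atp5g2 to 995 TPM for Atp5b, a 10.5-fold range, and 15 of the 38 exceeded 500 TPM. The lowest-ranked subunit in pup 1 was the 892nd most abundant gene, and in pup 3 the 2542nd. Counts per subunit ran from 775 to 57307, so Poisson counting alone gives a relative error of 0.418% to 3.59%. This excludes amplification, because PCR copies were not marked by molecular identifiers.

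Together the 38 genes held 1.49% of TPM in pup 1 and 2.10% in pup 3 (1.80 ± 0.431%). Complex V held the largest share, 0.715 ± 0.165%, followed by complex IV with 0.516 ± 0.118%, complex III with 0.447 ± 0.0987% and complex II with 0.118 ± 0.0502%. That order was the same in both libraries, and it follows the number of genes in each complex. Per gene the complexes were closer. The median subunit stood at 179 TPM in pup 1 and 391 in pup 3 for complex II, at 393 and 515 for complex III, at 345 and 596 for complex IV, and at 384 and 524 for complex V. Complex II thus had the lowest median in each library, while the medians of III, IV and V changed places between the pups.

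**Figure D1:**
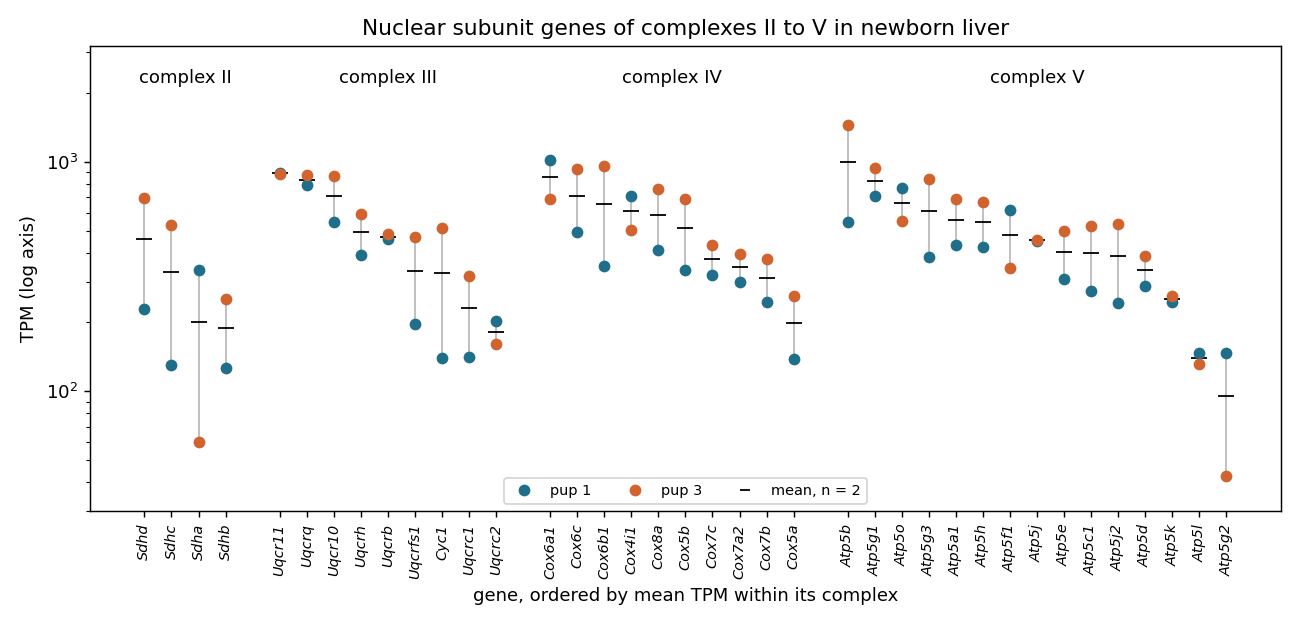
TPM (log axis) of each nuclear subunit gene in pup 1 and pup 3, grouped by complex and ordered by mean; the black dash is the mean of the 2 libraries. All 38 genes lie between 42.8 and 1446 TPM, and Sdha and Atp5g2 are the subunits of pup 3 under 100 TPM.

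Complex II, or succinate dehydrogenase, was the complex whose subunits differed most between the libraries. Sdha, the flavoprotein that oxidises succinate (chromosome 13, 74322254 to 74350280, minus strand, GRCm38), had 339 TPM in pup 1 and 60.0 in pup 3. That was 5.65-fold lower in pup 3, from 38222 to 4095 expected counts. The other subunits lay the opposite way. Sdhb, the iron-sulfur subunit, had 126 and 251 TPM. The membrane anchors Sdhc and Sdhd, which hold the ubiquinone site, had 130 and 530.0 TPM and 229 and 692 TPM. Sdha was thus the most abundant subunit of the complex in pup 1 and the least abundant in pup 3, and the TPM ratio of Sdha to Sdhb went from 2.69 to 0.239. Sdha had the largest ratio between the libraries of all 38 genes and Sdhc the next, in the opposite direction.

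The promoters of Sdha and Sdhd, and of Cox6a1 of complex IV, are shown because they hold motifs that were counted over all subunit genes. RefSeq promoter windows (GRCm38.p6, 250 bases before to 50 after the start) were matched for 30 of the 38 genes. Entries for Sdhc, Uqcrc2, Uqcrb, Uqcrq, Cyc1, Cox4i1, Cox6c and Atp5a1 were missing. The NRF1 motif, searched on both strands as GCGCA and GCGC with any 1 base between them, was found in 10 of 30, or 33.3%, against 5.19% of 27025 genes with a window. The ETS core CCGGAAG, which GABP also binds, was found in 12 of 30 (40.0%) against 9.93%. The YY1 core AAGATGGC was found in 3, all of complex V, against 3.19%, CCAAT in 16 (53.3%) against 41.1%, GGGCGG, the SP1 core, in 10 (33.3%) against 38.2%, and TATAAA in 1 (3.33%) against 15.7%. These motifs are counted separately, and any window may hold several. A match describes letters and is not a site. The 27025 genes were not matched to the subunits for level, so whether other abundant genes hold these motifs as often was not tested. The bases before the RefSeq start that lie outside the GENCODE gene are printed for Sdha (chr13:74350281-74350490, minus strand), Sdhd (chr9:50603850-50604099, minus strand) and Cox6a1 (chr5:115348982-115349208, minus strand). NRF1 and ETS matches are in capitals. These stretches of Sdha and Cox6a1 hold 2 NRF1 matches each, and that of Sdhd, which lay the opposite way from Sdha, holds 1 NRF1 and 1 ETS match.
Sdha: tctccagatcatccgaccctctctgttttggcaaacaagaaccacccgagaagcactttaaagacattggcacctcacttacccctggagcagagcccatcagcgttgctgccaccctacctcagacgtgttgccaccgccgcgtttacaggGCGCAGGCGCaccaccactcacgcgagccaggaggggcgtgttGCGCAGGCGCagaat
Sdhd: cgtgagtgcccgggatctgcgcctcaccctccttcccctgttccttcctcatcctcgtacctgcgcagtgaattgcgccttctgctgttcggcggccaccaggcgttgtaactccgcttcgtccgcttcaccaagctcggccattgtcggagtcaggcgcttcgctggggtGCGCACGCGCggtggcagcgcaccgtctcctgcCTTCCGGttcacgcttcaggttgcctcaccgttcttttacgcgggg
Cox6a1: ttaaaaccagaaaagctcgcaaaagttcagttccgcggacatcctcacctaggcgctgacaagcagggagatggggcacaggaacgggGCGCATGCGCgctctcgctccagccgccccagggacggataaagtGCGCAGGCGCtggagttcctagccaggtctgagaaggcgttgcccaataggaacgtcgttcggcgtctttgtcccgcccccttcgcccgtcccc

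In complex III, cytochrome bc1, each of the small accessory subunits had a higher mean than any of the core and catalytic ones. Uqcr11 had 895 TPM in pup 1 and 884 in pup 3, and Uqcrq had 795 and 876.5. Uqcrb had 461 and 482 TPM. These values of each gene differ by at most 1.10-fold, and their direction depends on scaling (below). Uqcr10 had 547.5 and 869 TPM, and the hinge protein gene Uqcrh 393 and 592. Cyc1, the haem-bearing cytochrome c1, had 139.5 TPM in pup 1 and 515 in pup 3, 3.69-fold higher in pup 3. Uqcrfs1, the Rieske iron-sulfur protein, had 196.5 and 469 TPM. Of the large core proteins, Uqcrc1 had 141 and 319 TPM and Uqcrc2 201.5 and 160.3. The core pair therefore changed order, with a TPM ratio of Uqcrc1 to Uqcrc2 of 0.698 in pup 1 and 1.99 in pup 3.

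In complex IV, cytochrome c oxidase, 8 of the 10 subunit genes were higher in pup 3. The subunit with the lowest level in each library, Cox5a, a matrix-side subunit, had 138 and 259 TPM. The highest in pup 1, Cox6a1, the liver-type form of subunit VIa, had 1023 TPM there and 689.6 in pup 3. Cox4i1, the common form of subunit IV, lay the same way with 712 and 503 TPM. Among the 8 that were higher in pup 3, Cox6b1, on the intermembrane side, had 351 and 960.0 TPM, the largest ratio in the complex (2.73-fold), and Cox5b had 338 and 689 TPM (2.04-fold). Cox6c had 493 and 930.0 TPM and Cox8a 411 and 760.1. Cox7a2, the liver-type subunit VIIa, had 298 and 397 TPM, Cox7c 322 and 432, and Cox7b 244 and 376. No complex IV subunit was over 2-fold lower in pup 3.

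Forms of complex IV subunits that belong to other tissues were mostly not detected. Of the 7 listed, Cox4i2, Cox6a2, Cox7a1, Cox7b2, Cox8b and Cox8c had 0 counts in both libraries, where 3 counts would be 0.0547 CPM in pup 1 and 0.0862 in pup 3. That limit covers counting error only, and 0 counts do not show absence here, since the broadly used genes Yy1, Surf1, Sco1 and Hccs were also at 0 in both libraries. Most genes were undetected, as 7678 of all 43346 reached 1 TPM in at least 1 library. Cox6a2, Cox7a1 and Cox8b are the forms of striated muscle. Cox6b2, known from testis, was the exception with 560 and 625 expected counts, or 43.5 and 48.3 TPM, against 351 and 960.0 TPM of its common counterpart Cox6b1.

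In complex V the catalytic head was led by Atp5b, the beta subunit that carries the active sites (chromosome 10, 128083273 to 128090391), with 544.5 TPM in pup 1 and 1446 in pup 3 (995 ± 637 TPM). Atp5a1, the alpha subunit that alternates with beta in the head, had 432 and 688 TPM. The TPM ratio of beta to alpha was 1.26 in pup 1 and 2.10 in pup 3, so beta exceeded alpha in both. The central stalk was lower. Its gamma subunit Atp5c1 had 275 and 524 TPM, its delta subunit Atp5d 288 and 389, and its epsilon subunit Atp5e 309 and 499.

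The peripheral stalk, which keeps the head from turning, held subunits that lay in different directions, as the membrane subunits and subunit c did too. Atp5o, the oligomycin sensitivity protein, had 768.5 TPM in pup 1 and 552.5 in pup 3, and Atp5f1, subunit b, had 618 and 344. Atp5h, subunit d, lay the other way with 425 and 669 TPM. Atp5j, coupling factor 6, had 453 and 454 TPM, the closest pair of values among the 38 genes, although its transcripts were divided differently (below). Among the membrane subunits, Atp5j2 (subunit f) had 242 and 538 TPM and Atp5k (subunit e) 244 and 259.6. Atp5l (subunit g) had 146 and 132 TPM.

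Subunit c forms the rotating ring through which protons pass, and 3 genes on different chromosomes encode it. They are Atp5g1 (chromosome 11, 96068852 to 96075670), Atp5g2 (chromosome 15, 102662864 to 102672352) and Atp5g3 (chromosome 2, 73908447 to 73911326). Translating the leading transcripts gave proteins of 136, 146 and 141 residues that share their last 78 residues exactly, the stretch that holds the mature subunit, and differ in the part before it. The 234 coding bases of that stretch are shown because they differ among these 3 genes although the protein is the same. They need not tell a gene from its near-identical copies (below). Capitals mark, in Atp5g2 and Atp5g3, the bases that differ from Atp5g1 and, in Atp5g1, the 63 positions at which either differs.
Atp5g1: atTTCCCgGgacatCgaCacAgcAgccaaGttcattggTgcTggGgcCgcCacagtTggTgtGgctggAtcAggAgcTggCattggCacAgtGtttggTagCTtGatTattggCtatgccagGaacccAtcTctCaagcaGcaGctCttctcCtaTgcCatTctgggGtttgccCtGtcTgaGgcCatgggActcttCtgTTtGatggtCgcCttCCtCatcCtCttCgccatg
Atp5g2: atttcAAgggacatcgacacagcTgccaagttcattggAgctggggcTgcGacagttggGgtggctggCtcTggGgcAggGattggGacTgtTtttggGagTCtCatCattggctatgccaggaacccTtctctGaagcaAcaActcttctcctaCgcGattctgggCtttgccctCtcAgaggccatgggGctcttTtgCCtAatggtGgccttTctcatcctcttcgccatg
Atp5g3: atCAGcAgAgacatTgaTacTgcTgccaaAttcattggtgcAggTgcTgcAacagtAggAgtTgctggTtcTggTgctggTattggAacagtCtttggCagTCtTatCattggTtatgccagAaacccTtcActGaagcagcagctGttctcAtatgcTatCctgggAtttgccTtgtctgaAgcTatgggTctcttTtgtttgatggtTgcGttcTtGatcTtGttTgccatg

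Atp5g2 differed from Atp5g1 at 36 of the 234 bases, 33 of them at the last position of a codon, and Atp5g3 at 50, 43 of them there. The genes were expressed unequally. Atp5g1 had 710.0 TPM in pup 1 and 940.4 in pup 3, Atp5g3 384 and 837.5, and Atp5g2 147 and 42.8. Atp5g1 made up 57.2% of the summed subunit c level in pup 1 and 51.6% in pup 3, Atp5g3 31.0% and 46.0%, and Atp5g2 11.8% and 2.35%. These shares and the sum leave out near-identical copies, with which Atp5g2 stood at 332 and 86.85 TPM (below). Atp5g2 was the lowest in each pup and, besides Sdha, the subunit gene over 2-fold lower in pup 3 (3.43-fold). The summed level, 1241 and 1821 TPM, lay above Atp5a1 in both libraries and above Atp5b in both.

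Annotated copies of complex V genes elsewhere in the genome were also assigned reads. Where gene and copy are identical, the counts do not show which of them was transcribed. The transcript with most counts of each gene (for Atp5f1 and Atp5j not a coding form) was compared with all GENCODE M21 transcripts, and 38 other genes of the tables matched over at least 200 nt at 90% identity or more, 33 of them processed pseudogenes. They belonged to 17 subunit genes, and the other 21 had none. For most of these 17 the copies held few reads, but 4 copies held at least 100 expected counts in a library. Atp5l (chromosome 9, 44912557 to 44920742) was assigned 2515 counts for pup 1 and 1551 for pup 3, whereas Gm10221, a processed pseudogene (chromosome 5, 24581554 to 24581862) identical to it over 309 nt, had 8226 and 7046. The 8 copies of Atp5l held 328% and 454% of the counts of the gene. With all copies added, Atp5l stood at 758 and 893 TPM, higher in pup 3, whereas the gene alone was lower there. Without copies Atp5l had a lower mean than all subunits but Atp5g2. Gm10175 (chromosome 7, 23946646 to 23947290), identical to Atp5g2 over 645 nt, had 3789 and 618 counts, near the 3872 and 775 of Atp5g2 itself, and the pair kept the same direction between pups (332 and 86.8 TPM with all copies). Gm10039 held 695 and 527 counts beside 15232 and 13582 of Atp5g1, and Gm12231 held 236 and 64.5 beside 33928 and 12868 of Atp5f1. Reads identical in gene and copy are divided by estimation, so the levels of Atp5l and Atp5g2 are uncertain in these tables. Counts were whole numbers (within 0.005) in both libraries for 23 of the 38 genes, and in at least 1 library not whole for 15.

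**Figure D2:**
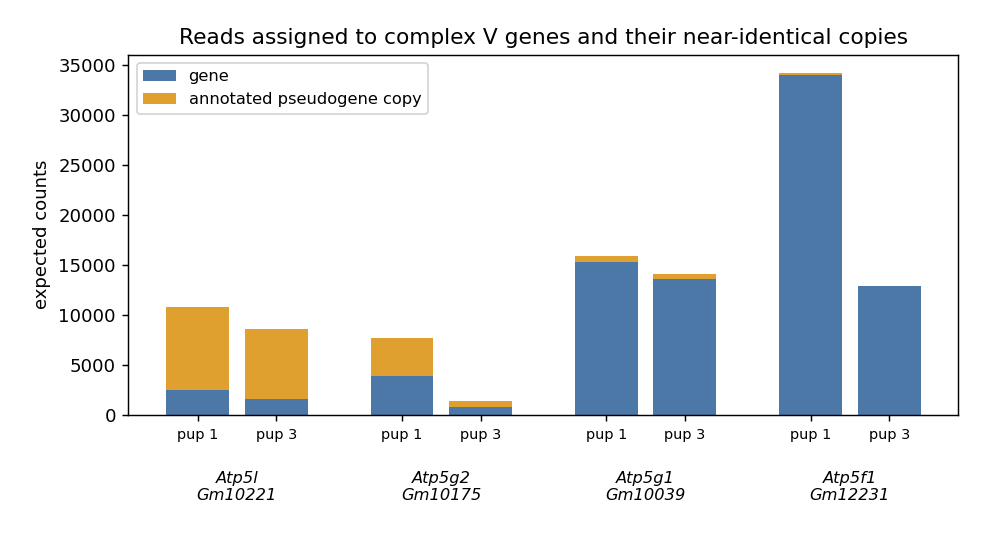
Expected counts of 4 complex V genes (blue) and of the near-identical pseudogene copy with most counts (yellow), stacked per library. Gm10221 holds more counts than Atp5l in both pups (8226 against 2515 in pup 1), while the copies of Atp5g1 and Atp5f1 add little.

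Transcripts of the same gene were split alike in both libraries for most subunits. The transcript with the highest deposited isoform percent, the share of a transcript in the TPM of its gene, was the same in both pups for all 38 genes, and 21 genes had a single transcript at 10% or more. The other 17 had several, and 12 genes had one that GENCODE M21 does not list as protein coding. For Cox5b the non-coding processed transcript held 55.5% in pup 1 and 55.3% in pup 3. For Cox7b the retained intron form held 45.0% and 45.7%, for Atp5b the non-coding processed transcript held 29.1% and 27.1%, and for Atp5f1 the form annotated to nonsense-mediated decay held 65.1% and 67.3%. Less even were the retained intron form of Atp5j with 63.15% and 77.95%, the shorter coding form of Atp5c1 with 21.5% and 3.31%, and the leading form of Atp5g3 with 51.3% and 73.6%. A decay form of Atp5j2 was listed at 0 in pup 1 and held 25.4% in pup 3, and a shorter coding form of Uqcrh was at 0 and 22.4%. A retained intron form of Sdha held 0.34% and 20.5%. Shares among overlapping transcripts are estimates, and a short form gets a high share from few reads, as that of Sdha did in pup 3 with 267 expected counts.

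Between the libraries, 29 of the 38 subunit genes were higher in pup 3 and 9 lower on log2(TPM + 1), or 76.3% higher, against 54.4% of the genes in the same range of mean level and 49.3% of all genes with a mean of at least 10 expected counts. That range includes the subunits and is not matched for level within it. Its median of mean TPM was 191, against 457 for the subunits. With edgeR TMM or DESeq2 size factors 25 were higher and 13 lower. Uqcrb, Uqcrq, Atp5j and Atp5k then turned to lower, and with scaling by spike-in totals Uqcr11 and Atp5l turned to higher. The median log2 ratio was 0.64 over the 38 genes, against 0.12 in that range and -0.04 over those 8120 genes. By complex it was 1.29 for II, 0.59 for III, 0.75 for IV and 0.43 for V. Over 2-fold higher in pup 3 were 10 genes, or 26.3%, against 22.2% in the range and 33.1% of the 8120. They were Sdhc, Sdhd, Uqcrc1, Uqcrfs1, Cyc1, Cox5b, Cox6b1, Atp5b, Atp5g3 and Atp5j2. Over 2-fold lower were Sdha and Atp5g2, 2 genes or 5.26%, against 13.9% in the range and 34.5% of the 8120. The share past 2-fold upward is near the background. On log2(TPM + 1) the median SD of a subunit gene was 0.48, and that of a gene in the range 0.50. By summed share the hepatocyte markers were lower and the erythroid markers higher in pup 3, as given above, but single markers were mixed. Trf (-0.60) and Ahsg (-0.56) had the lowest log2 ratios of the 6 hepatocyte markers, 3 of which (Alb, Afp and Ttr) were higher in pup 3, with a list median of 0.06. Of the 7 erythroid markers 5 were higher, and Alas2 (-0.36) and Slc4a1 (-0.18) were lower. The part of these markers in the subunits' ratios was not tested.

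**Figure D3:**
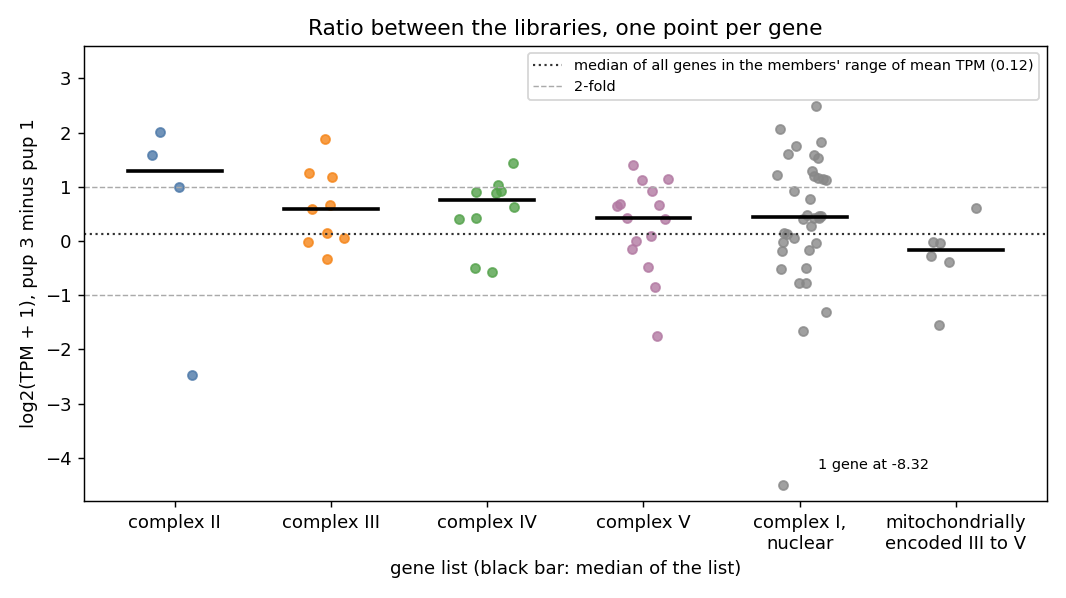
Difference of log2(TPM + 1), pup 3 minus pup 1, with one point per gene and a black bar at the median of each list; dashed lines mark 2-fold and the dotted line the median (0.12) of all genes in the same range of mean TPM. The medians of complexes II to V lie at 1.29, 0.59, 0.75 and 0.43, and that of the mitochondrially encoded subunits at -0.16; all shift by -0.15 with edgeR TMM or DESeq2 scaling and by 0.32 with spike-in totals.

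Nuclear complex I is the most similar set. Its 36 listed genes held 0.620% and 0.898% of TPM, with 35 detected in both libraries, 25 higher in pup 3 and a median log2 ratio of 0.44. Of these, 20 were within 2-fold between the libraries, as were 26 of the 38 genes of complexes II to V. The mitochondrially encoded partners lay otherwise. Their 6 genes held 3.09% of TPM in pup 1 and 2.44% in pup 3, with a median log2 ratio of -0.16, and 5 of the 6 were lower in pup 3 (all but mt-Co3). The catalytic complex IV subunit mt-Co1 had 4923 and 1688 TPM. Summed, mt-Co1, mt-Co2 and mt-Co3 had 8802 and 6041 TPM, against 4329 and 5994 for the 10 nuclear complex IV genes. The median of these mitochondrial genes was 8.18 times the nuclear median of complex IV in pup 1 and 2.83 times in pup 3. For complex III, mt-Cytb had 3545 and 3524 TPM, 9.02 and 6.84 times the nuclear median. Nuclear copies of the mitochondrial genome can share reads with these genes and were not searched for here. In addition, mt-Atp8 overlaps mt-Atp6 and is short, so the levels of the mitochondrial genes are less certain. Scaling by spike-in totals adds 0.32 to every log2 ratio, which exceeds the size of those of mt-Cytb (-0.01), mt-Co2 (-0.04) and mt-Atp6 (-0.28) and of the median, so their direction depends on scaling.

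The genes listed as assembly factors of complexes II to V mostly encode proteins that insert cofactors or join subunits without staying in the complex. They were detected less completely than the subunits and had a lower median level. Of 34 listed, 12 were detected in both libraries, 5 in pup 1 alone, 1 in pup 3 alone and 16 in neither. Detection in both, for 12 of the 18 found in at least 1 library, was thus no rarer than the 46.3% of all genes. Together the factors held 0.0831% and 0.0979% of TPM. For complex IV, the copper chaperone Cox17 had the highest mean, with 155.5 and 149 TPM, although Cox14 (56.1 and 221 TPM) exceeded it in pup 3. Next by mean among the genes listed for complex IV came Fastk (46.2 and 94.5), Cox16 (92.2 and 43.1) and Coa5 (10.5 and 113). Whether Fastk acts as an assembly factor was not tested. Cox20 had 65.6 and 56.8 TPM. For the copper chaperone Sco2 pup 1 had 1232 expected counts and pup 3 had 0, and for Coa7 2587 and 0. For complex III, Uqcc1 had 68.4 and 85.1 TPM and the other 5 factors were under 1 TPM. For complex II, Sdhaf4 had 48.3 and 39.6 TPM, with the other 3 under 1 TPM. Tmem70, which helps to assemble ATP synthase, had 0 counts for pup 1 and 1591 for pup 3. Of the 34, 11 had 0 counts in both libraries. The median of the mean levels was 1.68 TPM for the assembly factors and 457 TPM for the subunits.

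**Figure D4:**
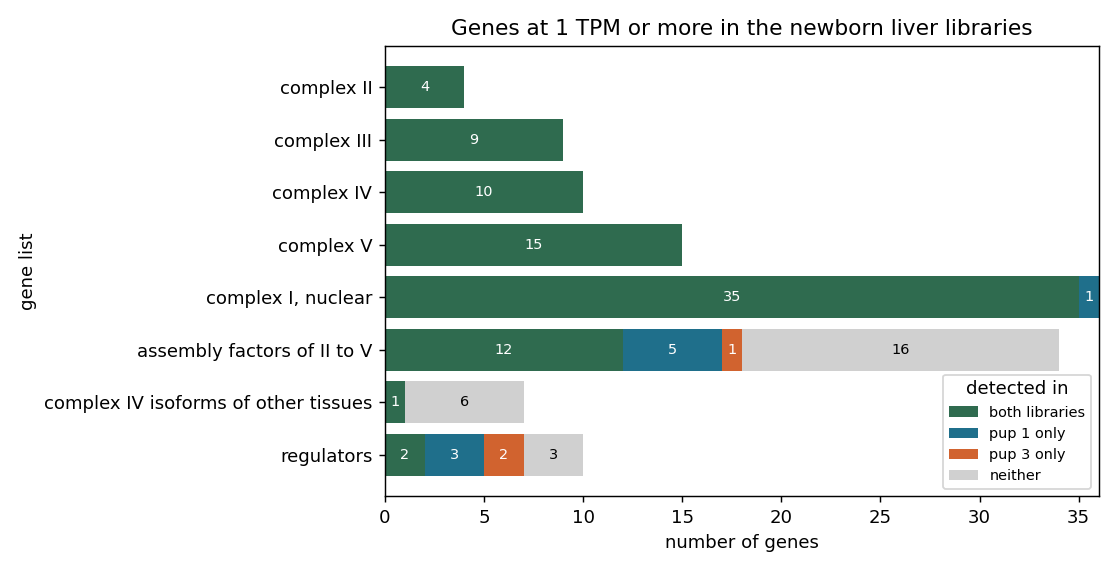
Number of genes that reached 1 TPM in both libraries, in 1 of them or in neither, for the subunits of complexes II to V, nuclear complex I and 3 related lists. All 38 subunit genes were detected in both pups, against 12 of 34 assembly factors and 1 of 7 complex IV isoforms of other tissues. Of all 43346 genes, not matched for level, 3555 were detected in both.

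Of 9 genes listed as other subunits and partners, 8 were detected in both libraries, all but Atp5sl (Dmac2 in the annotation). Ndufa4, now counted to complex IV, had 709 and 727 TPM. The small ATP synthase proteins Usmg5 and 2010107E04Rik had 399 and 1098 TPM and 312 and 715 TPM, and Atpif1, the inhibitor that stops the enzyme from splitting ATP, had 382.5 and 815 TPM. Higd2a had 59.9 and 315 TPM, and Cox7a2l had 65.5 and 47.2. Cycs, cytochrome c itself, had 52.7 and 62.5 TPM, below each of the 38 subunit genes in pup 1 and below all of them but Sdha and Atp5g2 in pup 3. Copies were searched for the 38 genes alone, so any reads of Cycs assigned to copies are left out of its level. The testis form Cyct and the haem lyase gene Hccs had 0 counts in both.

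Longer subunit transcripts differed more between the libraries. Of the 11 genes with an effective length over 1000 nt, 6 were past 2-fold, of the 13 from 500 to 1000 nt 4 were, and of the 14 under 500 nt 2 were. Across the 38 genes the size of the log2 ratio went with log2 effective length at r = 0.53 (Pearson) and rho = 0.47 (Spearman), a description of genes that share libraries. Over the other 1006 genes in the same range of mean level r was -0.05 and rho -0.03. Long genes that were steady exist here as well, such as Uqcrc2 (1.26-fold) and Atp5a1 (1.59-fold). TPM itself declined weakly with effective length, with an r of -0.28 in each library, while expected counts were higher for longer genes (r of 0.59 in pup 1 and 0.46 in pup 3). Levels of the subunits in pup 1 and pup 3 were related at r = 0.54 and rho = 0.61 across the 38 genes, again as a description.

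**Figure D5:**
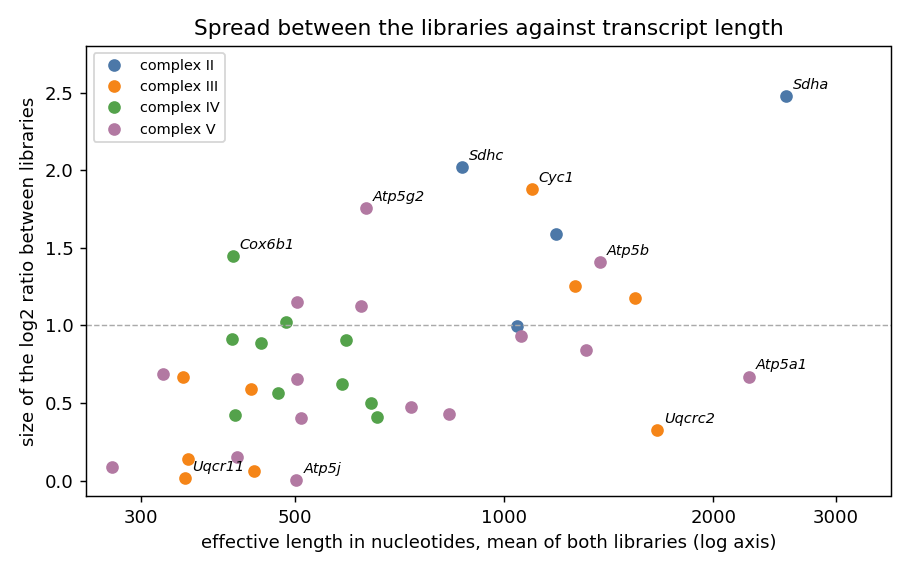
Size of the log2 ratio between the libraries against effective length (log axis), one point per subunit gene coloured by complex; the dashed line marks 2-fold. Short genes such as Uqcr11 lie near 0 and Sdha, the longest, highest (5.65-fold), with Uqcrc2 and Atp5a1 as long genes under 2-fold.

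Exons of 11 of the 38 genes overlap those of another listed gene, on the opposite strand for all but Atp5g2. The sources used here do not give whether counting used strand, so such reads cannot be told apart. Most of these neighbours had few or no counts. Emc8, opposite Cox4i1, had 2696 and 665 expected counts, and Wdr77, opposite Atp5f1, had 3437 and 0. Gabpa, opposite Atp5j, had 2 and 7910, against 9915 and 6227 of Atp5j.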

How the data were processed

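Gene and transcript tables of the 2 newborn liver libraries were used. The extraction (Ambion mirVana) and a SmartSeq protocol are named per the labels. The deposited notes give the mm10 assembly and GENCODE M4. The sources used here give neither aligner nor quantifier. The authors deposited expected counts, TPM over all features with spike-ins included, the posterior mean TPM, used as a score for an alternative, and isoform percent.

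GENCODE M21 (GRCm38, which is mm10) supplied symbols and coordinates; 42462 of 43346 gene identifiers matched. All 38 subunit symbols matched directly, and 2 of 181 listed symbols through another name. Endogenous counts were 54817565 and 34792898. Detection was 1 TPM, ratios used log2(TPM + 1), and background counts required a mean of 10 expected counts. Means within the subunits' range defined the range used for comparison. The members and gene lists were chosen with earlier results of these data known. Genes were named by membership, up to 6 leading genes of related lists, and copies with 100 counts; Sco2, Coa7, Tmem70, Suclg2, Sucla2, overlapping neighbours and the promoters printed were chosen after their values were seen. Ratios were checked on simulated counts. No test was possible with 1 group. Copies were found with blastn 2.17.0. Alternatives used edgeR 4.0.16 and DESeq2 1.42.0 factors on rounded expected counts. Python 3.11.15, pandas 2.3.3, numpy 2.4.6, scipy 1.17.1, matplotlib 3.10.9 and R 4.3.3 were used.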

Additional observations from a re-analysis of the deposited data

How the results depend on the processing

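The lowest value of any of the 38 genes was 42.8 TPM. Their detection at 0.1 and 10 TPM and in each library alone follows from that and is no separate check. Detection of all 38 also held after thinning of the deeper library. As percent of expected counts, which are not per length, the shares moved to 1.04% for all members, 0.216% for complex III, 0.202% for complex IV and 0.499% for complex V, and complex III then exceeded complex IV in the mean and in pup 3 (0.269% against 0.239%) but not in pup 1 (0.162% against 0.166%). In single libraries the share of all members was 1.49% and 2.10%, of complex II 0.0823% and 0.153%, of complex III 0.377% and 0.517%, of complex IV 0.433% and 0.599%, and of complex V 0.599% and 0.832%. With edgeR TMM factors the median log2 ratio was 0.49 for all members, 1.14 for complex II, 0.44 for III, 0.60 for IV and 0.28 for V. With DESeq2 size factors it was 0.49, 1.15, 0.44, 0.61 and 0.28, and with spike-in totals 0.95, 1.61, 0.90, 1.07 and 0.74. Over 2-fold higher in pup 3 were 16 members with spike-in totals (36.2% of all genes), 7 with TMM factors (31.7%) and 8 with DESeq2 factors (31.8%). Single genes that changed sign were, with TMM and DESeq2 factors respectively, Uqcrb (-0.087 and -0.084), Uqcrq (-0.01 and -0.007), Atp5j (-0.147 and -0.144) and Atp5k (-0.062 and -0.059), and with spike-in totals Uqcr11 (0.30) and Atp5l (0.16). Scaling moved every gene by about -0.15 with TMM or DESeq2 factors and 0.32 with spike-in totals. The posterior mean TPM, the protein-coding denominator and the added copies were applied to the shares alone, and the pseudocount to the ratios and 2-fold counts alone. None moved a summary value past its limit (1 SD of the shares, 0.1 in log2 and 1.5 times for counts, set afterwards). All ratios and counts of direction leave out the copies, with which Atp5l turned to higher in pup 3 (758 and 893 TPM). No paired analysis was possible because the libraries form 1 group.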

Other observations

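Most regulators of respiratory genes were found in 1 library or none, and those found were below the subunits, except that Gabpa in pup 3 exceeded Sdha and Atp5g2. Of 10 listed, 2 were detected in both libraries, 3 in pup 1 alone, 2 in pup 3 alone and 3 in neither. Of all genes found in at least 1 library 46.3% were found in both, so detection in 1 alone was common. What lies behind the differences between the libraries given next was not tested. Ppargc1a, a coactivator of mitochondrial biogenesis and gluconeogenesis, had 18.3 TPM in pup 1 and 42.6 in pup 3, and its relative Ppargc1b had 37.6 and 15.9. Gabpa, the DNA-binding part of an ETS factor of respiratory promoters, had 0.0107 and 88.6 TPM. Pprc1 had 0 and 17.8 TPM, Tfam, which packages and transcribes mitochondrial DNA, 11.4 and 0, and Nrf1, the factor whose motif was counted above, 6.27 and 0.0530.

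Among the citric acid cycle genes, which feed electrons to the chain, 11 of 13 were detected in both libraries, and the list held 0.141% of TPM in pup 1 and 0.149% in pup 3, with a median log2 ratio of -0.11. For Suclg2 pup 1 had 0 counts and pup 3 had 5499, and Sucla2, which encodes the other form of the same subunit, had 2507 and 2. This pair was chosen after its values were seen. Of all genes found in at least 1 library, not matched for level, 46.3% were found in both, so detection in 1 alone was common. A switch between the 2 genes was not tested.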
